A study of Arabidopsis thaliana with 6 samples.

Results

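Aquaporins are membrane channels for water and small neutral solutes, and the genes described here are 34 members of the Arabidopsis family: 13 plasma membrane intrinsic proteins (PIP), 10 tonoplast intrinsic proteins (TIP), 8 nodulin 26-like intrinsic proteins (NIP) and 3 small basic intrinsic proteins (SIP). They were chosen by AGI locus from a table of 28775 genes, and NIP2-1 was not among the loci chosen. Members are written with a hyphen, as in protein databases, so that PIP2-4 stands for PIP2;4 of the family nomenclature, and the count table itself gives the AGI locus alone. Transcript levels were measured by RNA-seq of polyA RNA in 6 libraries of whole Arabidopsis seedlings, 2 independent biological replicates in each of 3 groups. MA-Line1 carries 35S:MA-JcERFVII2, in which alanine takes the place of the cysteine that follows the first methionine of the *Jatropha curcas* transcription factor JcERFVII2. In the study's in vitro assay this change made the protein more stable. The study regards the protein as a substrate of the oxygen-dependent N-end rule pathway of degradation. MC-Line3 carries 35S:MC-JcERFVII2, which keeps that cysteine, and Col-0 is the ecotype without a transgene. In both lines the viral 35S promoter drives the transgene in most tissues, each form is represented by 1 homozygous line, and the form and the line therefore cannot be told apart. All seedlings were grown vertically on plates in air and collected when the 16 h of light ended. The sample labels give an age of 10 d for all 3 groups and the study's text a younger one. The comparisons address how aquaporin transcripts in each line differed from those in Col-0 under aerobic conditions, and how MA-Line1 differed from MC-Line3.

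PIPs sit mainly in the plasma membrane, where PIP1 and PIP2 subunits assemble into mixed tetramers and PIP2 subunits help PIP1 subunits reach the membrane. TIPs sit in the vacuolar membrane, several NIPs carry boric acid or arsenite, and SIPs are found in the endoplasmic reticulum. In roots, PIPs and TIPs together set much of the path by which water crosses living cells from the soil to the xylem.

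Each channel carries a pair of conserved turns whose core is asparagine and proline followed by a small residue, alanine in most members, and these turns meet in the middle of the pore. The coding sequence around the downstream turn is shown for the members on which the results turn, because closely related pairs among them had different values and because reads from near-identical copies cannot always be assigned. Capitals mark the 3 codons of the turn. The sequences were read from the RefSeq TAIR10.1 genome, all lie within a coding exon, and each is written 5′ to 3′ on the gene's own strand.
PIP1-2, chr2:18911439-18911483, plus strand: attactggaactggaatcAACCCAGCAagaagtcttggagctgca
PIP2-2, chr2:15613878-15613922, minus strand: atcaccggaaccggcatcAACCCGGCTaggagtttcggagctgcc
PIP2-3, chr2:15618648-15618692, plus strand: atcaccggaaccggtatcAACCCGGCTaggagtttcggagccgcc
PIP2-4, chr5:24375936-24375980, minus strand: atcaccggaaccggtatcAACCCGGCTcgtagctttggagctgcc
TIP2-2, chr4:9700068-9700112, plus strand: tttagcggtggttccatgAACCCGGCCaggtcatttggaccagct
TIP2-3, chr5:19248647-19248691, minus strand: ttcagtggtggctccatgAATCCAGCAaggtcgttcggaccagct
NIP1-1, chr4:10421896-10421940, minus strand: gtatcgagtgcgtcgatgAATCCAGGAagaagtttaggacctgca
NIP5-1, chr4:6431677-6431721, minus strand: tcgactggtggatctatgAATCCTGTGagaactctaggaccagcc
NIP6-1, chr1:30350784-30350828, minus strand: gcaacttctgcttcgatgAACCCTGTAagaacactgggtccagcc
PIP2-2 and PIP2-3 differed at 2 of these 45 bases, and TIP2-2 and TIP2-3 at 8 of 45. NIP5-1 and NIP6-1 have a valine codon in the third place of the turn, where the PIPs and TIPs shown have an alanine codon.

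PIP2-2 and PIP2-3 are neighbours on chromosome 2. In the PIP2-2 exons, 14.7% of the 50-base words and 4.64% of the 100-base words also occur in PIP2-3, so their counts may be partly lost or exchanged. NIP3-1 shared 9.21% of its 50-base words with another gene, AT2G21020, NIP4-1 and NIP4-2 shared 3.12% and 3.14% of theirs with each other, and no other member shared any. NIP3-1, NIP4-1 and NIP4-2 shared no 100-base word. TIP2-1, TIP3-1, NIP6-1 and SIP2-1, among the tested members, overlap an exon of a gene on the opposite strand over at least 10.1%, 24.6%, 2.15% and 11.4% of their exon length, and the library kit does not mark strand, so reads there cannot be told apart.

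Libraries held 55279731 to 63891492 counts in MA-Line1, 53084008 to 55374630 in MC-Line3 and 58445620 to 65271057 in Col-0. The JcERFVII2 transcript itself is not among the counted genes, so the transgene could not be checked in any library. Both lines were set against the same 2 Col-0 libraries. Counts of the 2 libraries of a group differed beyond counting error, by a chi-square per gene of 5.70 in MA-Line1, 9.97 in MC-Line3 and 27.7 in Col-0, where about 1 is due to counting alone. The tests below use 1 spread pooled across the groups. A fit without 1 Col-0 library loses the difference between the Col-0 libraries, the largest of the 3 groups, from that spread. Calls gained only in such fits carry that limit.

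Levels are given as CPM, counts per 1000000 counts of a library, after TMM scaling of the library sizes, a scaling that removes differences in composition between libraries, and levels of different genes are compared as CPM per kb of exon. Of the 34 members, 30 had enough counts to be tested. TIP5-1 and NIP4-1 had 0 counts in all 6 libraries, which allows up to 3 counts per library, and TIP3-2 and NIP4-2 had at most 6 counts in any library. The members spanned a wide range: 11 averaged at least 100 CPM per kb over the 6 libraries, 8 averaged from 10 to under 100, and 15 averaged under 10. The vacuolar channel TIP1-2 had the highest level at 989 CPM per kb, before PIP1-2 at 576, TIP2-1 at 575 and PIP2-1 at 517 CPM per kb. PIP1-2 and TIP2-1 differed in mean level by less than the spread between libraries. The highest NIP, NIP6-1, averaged 16.5 CPM per kb and the highest SIP, SIP1-1, averaged 58.4 CPM per kb.

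**Figure D1:**
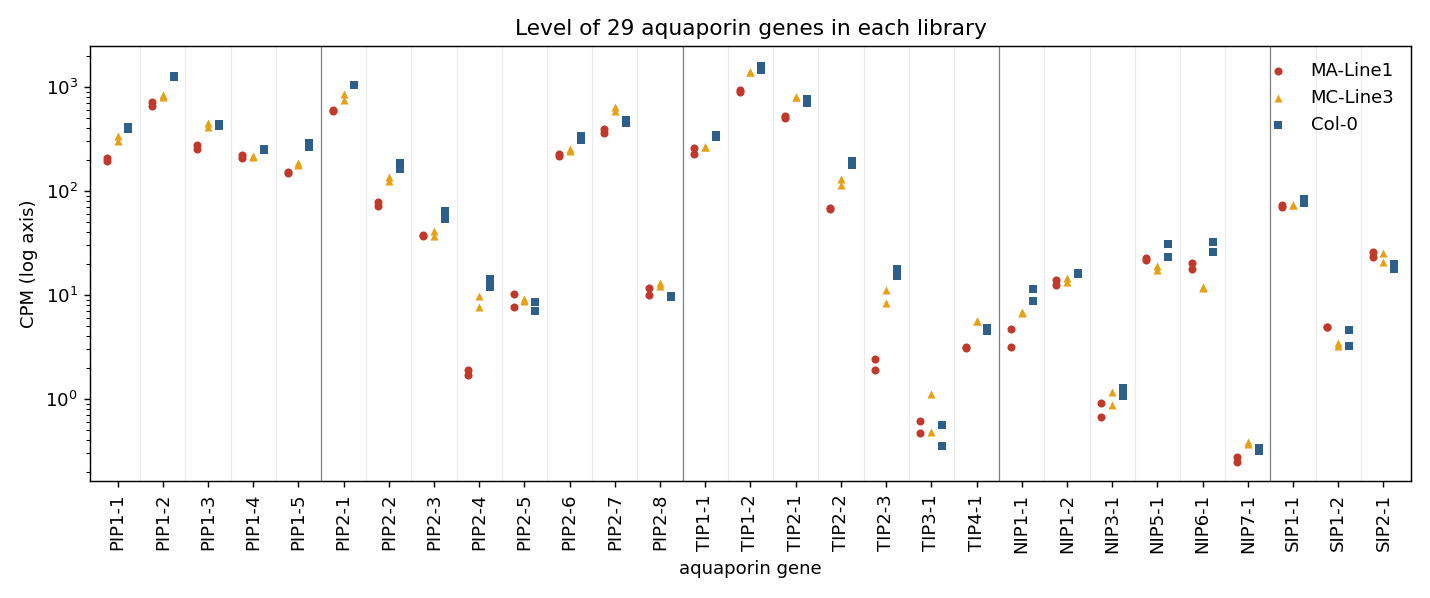
Level of each tested aquaporin gene except TIP1-3, in CPM on a log axis, with 1 point for each of the 2 libraries of MA-Line1 (circles), MC-Line3 (triangles) and Col-0 (squares), and grey lines between PIP1, PIP2, TIP, NIP and SIP. The 2 libraries of a group lay close together for abundant members, and PIP2-4 and TIP2-3 in MA-Line1, at 1.7 to 2.42 CPM, lay far below both other groups.

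The summed aquaporin transcript level was lowest in MA-Line1 and intermediate in MC-Line3. The 34 members summed to 4615 and 4900 CPM in MA-Line1, 6732 and 6406 CPM in MC-Line3, and 7872 and 7555 CPM in Col-0. The 3 groups did not overlap, and the mean sum was 0.617 of the Col-0 mean in MA-Line1, compared with 0.852 of it in MC-Line3. As a share of all counts, without TMM scaling, the members held 0.489 and 0.51% in MA-Line1. That share was 0.686 and 0.655% in MC-Line3, and 0.724 and 0.716% in Col-0. TIP1-2, PIP1-2, PIP2-1, TIP2-1 and PIP2-7 supplied 65.8% of the sum over all libraries. By subfamily, the ratio of the MA-Line1 mean to the Col-0 mean was 0.582 for PIP1, 0.633 for PIP2, 0.621 for TIP, 0.707 for NIP and 0.976 for SIP. The corresponding ratios of MC-Line3 to Col-0 were 0.749 for PIP1, 0.887 for PIP2, 0.923 for TIP, 0.619 for NIP and 0.967 for SIP. As unscaled shares of counts, MC-Line3 overlapped Col-0 for PIP2 (0.2 and 0.18% against 0.194 and 0.198%). The same held for TIP (0.265 and 0.264% against 0.267 and 0.257%). The unscaled SIP share was lowest in Col-0, at 0.00983 and 0.00953%. The NIP sum was 56.4 and 62.7 CPM in MA-Line1, 52 and 52.3 CPM in MC-Line3, and 75.4 and 93.2 CPM in Col-0, with both MC-Line3 libraries below both MA-Line1 libraries.

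**Figure D2:**
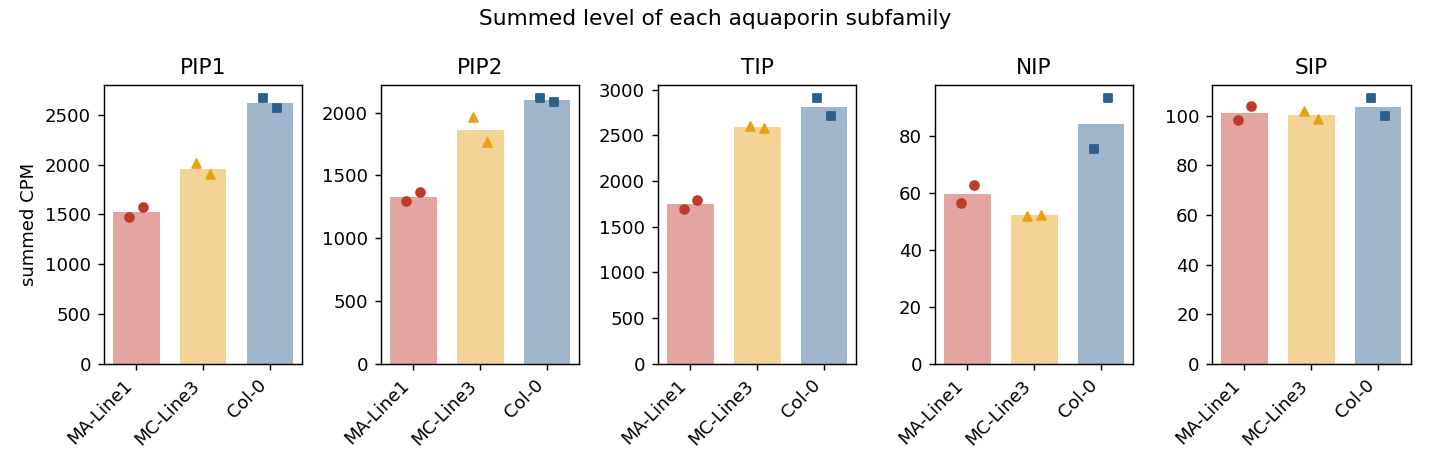
Summed level in CPM of the members of PIP1, PIP2, TIP, NIP and SIP, with bars from 0 for the mean of 2 libraries and points for the libraries, MA-Line1 left, MC-Line3 in the middle and Col-0 right in each panel. The PIP1 sum was 1471 and 1575 CPM in MA-Line1, 2015 and 1906 CPM in MC-Line3 and 2668 and 2566 CPM in Col-0, whereas the SIP sum stayed between 98.4 and 107 CPM in all 6 libraries.

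In MA-Line1 against Col-0, 21 of the 30 tested members fell and 1 rose at an adjusted p below 0.05 in the quasi-likelihood F-test of edgeR, adjusted by the Benjamini-Hochberg method over 21206 genes, where 19.1% of all tested genes fell, 18.0% rose and 37.1% were called in either direction. The median log2 fold change was -0.56 over the tested members and 0.01 over all tested genes. A fall by a log2 fold change of size 1 or more was called for 7 members, PIP1-1, PIP2-2, PIP2-4, TIP1-3, TIP2-2, TIP2-3 and NIP1-1, against 4.76% of all tested genes. In MC-Line3 against Col-0, 16 of the 30 members fell and 2 rose, against 16.7% and 14.5% of all tested genes and 31.2% called in either direction. The median log2 fold change there was -0.29 over the tested members and 0.01 over all tested genes, and a fall of size 1 or more was called for NIP6-1 and TIP1-3, against 3.63% of all tested genes. Without MC-Line3 replicate 1 the MC-Line3 calls numbered 11, with 20.2% of all tested genes called, and without MC-Line3 replicate 2 they numbered 9, with 16.4% of all tested genes called. TIP1-3 passed the filter on low counts through the Col-0 libraries alone and so had to differ. Among the other 29 members, 20 fell in MA-Line1, 6 of them by a size of 1 or more, and 15 fell in MC-Line3, 1 of them by that size, with medians of -0.56 and -0.23.

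**Figure D3:**
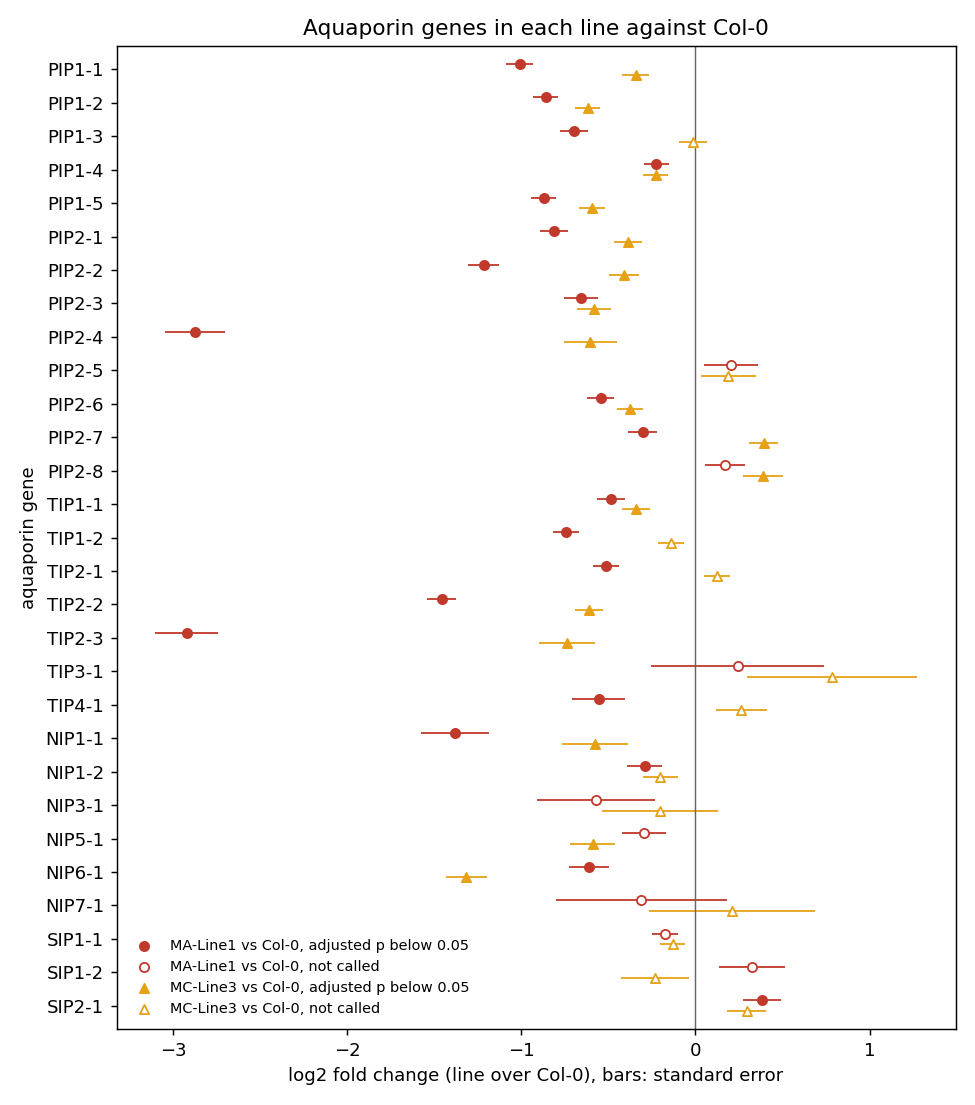
Log2 fold change of each tested aquaporin gene except TIP1-3 in MA-Line1 (circles) and MC-Line3 (triangles) over the shared Col-0 libraries, with bars for the standard error and filled symbols for an adjusted p below 0.05 by edgeR's quasi-likelihood test. All 5 PIP1 genes carry filled circles left of 0, PIP2-4 and TIP2-3 lie at -2.87 and -2.92 in MA-Line1, and NIP6-1 lies further left in MC-Line3 (-1.32) than in MA-Line1 (-0.61).

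The PIP1 channels, which depend on PIP2 partners for full activity, fell as a whole in MA-Line1, with 5 of 5 members called. Of all tested genes, 19.1% fell there. PIP1-1 (AT3G61430) had 195 and 206 CPM in MA-Line1, 335 and 302 CPM in MC-Line3, and 410 and 398 CPM in Col-0. It fell in MA-Line1 by a log2 fold change of -1.01 ± 0.08 (SE, edgeR adjusted p = 6.33e-06, where an edgeR adjusted p is always that of the quasi-likelihood F-test after Benjamini-Hochberg adjustment) and in MC-Line3 by one of -0.34 ± 0.08 (edgeR adjusted p = 0.00685). Its 3 groups did not overlap, and the MC-Line3 call was lost without MC-Line3 replicate 2 (edgeR adjusted p = 0.0812). PIP1-2 (AT2G45960), the highest PIP per length, had 663 and 718 CPM in MA-Line1, 833 and 801 CPM in MC-Line3, and 1270 and 1238 CPM in Col-0. Both lines lay clearly below Col-0, MA-Line1 by a log2 fold change of -0.86 ± 0.07 (edgeR adjusted p = 1.09e-05) and MC-Line3 by one of -0.62 ± 0.07 (edgeR adjusted p = 0.000124).

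PIP1-5 (AT4G23400) was close to PIP1-2 in the size of its changes. It had 150 and 151 CPM in MA-Line1, 186 and 179 CPM in MC-Line3, and 287 and 264 CPM in Col-0, with log2 fold changes of -0.87 ± 0.07 in MA-Line1, compared with -0.59 ± 0.07 in MC-Line3 (edgeR adjusted p = 1.16e-05 and 0.000191). PIP1-3 (AT1G01620) fell in MA-Line1 alone among the calls against Col-0. Its level was 256 and 279 CPM in MA-Line1, 449 and 409 CPM in MC-Line3, and 446 and 420 CPM in Col-0. MC-Line3 and Col-0 overlapped, with a log2 fold change of -0.01 ± 0.08 (edgeR adjusted p = 0.914), whereas MA-Line1 lay at -0.70 ± 0.08 (edgeR adjusted p = 8.81e-05). PIP1-4 fell slightly in both lines, with log2 fold changes of -0.22 ± 0.07 in MA-Line1 against -0.23 ± 0.07 in MC-Line3, and both calls were lost on leaving out any 1 library of either line or scaling by library size alone.

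The PIP2 channels, the subunits with high water transport of their own, were less uniform. In MA-Line1 6 of 8 fell, while 5 of 8 fell and 2 rose in MC-Line3. Among all tested genes, 19.1% fell in MA-Line1, while 16.7% fell and 14.5% rose in MC-Line3. PIP2-1 (AT3G53420), the most abundant PIP2 and a channel of roots, leaves and guard cells, had 591 and 599 CPM in MA-Line1, 854 and 745 CPM in MC-Line3, and 1049 and 1039 CPM in Col-0. The log2 fold change was -0.81 ± 0.08 in MA-Line1, compared with -0.39 ± 0.08 in MC-Line3 (edgeR adjusted p = 2.87e-05 and 0.00405), and without MC-Line3 replicate 2 the MC-Line3 call was lost (edgeR adjusted p = 0.0524). PIP2-6 (AT2G39010) followed the same order, with 215 and 229 CPM in MA-Line1, 256 and 243 CPM in MC-Line3, and 336 and 312 CPM in Col-0. It fell in both lines, with log2 fold changes of -0.55 ± 0.08 in MA-Line1 against -0.38 ± 0.07 in MC-Line3 (edgeR adjusted p = 0.00028 and 0.0037).

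PIP2-4 (AT5G60660, chr5:24375368-24377206), a channel known mainly from roots, showed the largest fall among the PIPs. It had 1.89 and 1.7 CPM in MA-Line1, 9.69 and 7.67 CPM in MC-Line3, and 11.9 and 14.4 CPM in Col-0. The 3 groups did not overlap, and MA-Line1 stood far below both others. The level was 7.31-fold lower in MA-Line1 than in Col-0 (log2 fold change -2.87 ± 0.17, edgeR adjusted p = 1.12e-06) and 1.52-fold lower in MC-Line3 than in Col-0 (log2 fold change -0.60 ± 0.15, edgeR adjusted p = 0.0118). Without MC-Line3 replicate 2 the call in MC-Line3 was lost (edgeR adjusted p = 0.122).

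The neighbouring genes PIP2-2 (AT2G37170) and PIP2-3 (AT2G37180), whose pore-turn sequences are nearly identical above, had different values in MA-Line1. PIP2-2, a root channel, had 72.6 and 77.8 CPM in MA-Line1, 138 and 126 CPM in MC-Line3, and 163 and 186 CPM in Col-0. PIP2-3 had 37.2 and 37.4 CPM in MA-Line1, 41.6 and 36.9 CPM in MC-Line3, and 53.4 and 64 CPM in Col-0. In MA-Line1 the log2 fold change was -1.22 ± 0.09 for PIP2-2 and -0.66 ± 0.10 for PIP2-3 (edgeR adjusted p = 4.06e-06 and 0.000422), and in MC-Line3 it was -0.41 ± 0.09 and -0.58 ± 0.10 (edgeR adjusted p = 0.00497 and 0.00124). The MC-Line3 call of PIP2-2 was lost without MC-Line3 replicate 2 (edgeR adjusted p = 0.0679). The ratio of PIP2-2 to PIP2-3 counts was 1.95 and 2.08 in the MA-Line1 libraries, 3.31 and 3.41 in those of MC-Line3 and 3.06 and 2.91 in those of Col-0. MA-Line1 thus had the lowest ratio in both libraries, with the difference in response between the genes not tested and some exchange of reads between them possible.

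PIP2-7 (AT4G35100) was called in opposite directions in the lines. It had 359 and 398 CPM in MA-Line1, 641 and 585 CPM in MC-Line3, and 484 and 451 CPM in Col-0, so that Col-0 lay between the lines without overlap. It fell in MA-Line1 and rose in MC-Line3, with log2 fold changes of -0.30 ± 0.08 and 0.39 ± 0.08 (edgeR adjusted p = 0.0146 and 0.00478). The fall was lost without MA-Line1 replicate 1 and when library size was the only scaling, and the rise was lost without MC-Line3 replicate 1 (edgeR adjusted p = 0.0556 for the rise). PIP2-8, a low member of the subfamily, rose in MC-Line3 by 0.39 ± 0.12 on the log2 scale, a call lost without either MC-Line3 library, and PIP2-5 was called in neither line, at 7.07 to 10.3 CPM in the 6 libraries.

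Of the TIP channels of the vacuolar membrane, 7 of 8 tested members fell in MA-Line1, compared with 4 of 8 in MC-Line3. The shares of all tested genes that fell were 19.1% and 16.7%. Both TIP counts include TIP1-3, which passed the filter through Col-0 alone and so had to differ. TIP1-2 (AT3G26520), the most abundant aquaporin of these seedlings, had 890 and 936 CPM in MA-Line1, 1390 and 1382 CPM in MC-Line3, and 1604 and 1450 CPM in Col-0. It fell in MA-Line1 by a log2 fold change of -0.74 ± 0.07 (edgeR adjusted p = 3.45e-05), and the value in MC-Line3 was -0.14 ± 0.07 (edgeR adjusted p = 0.178), which was called without Col-0 replicate 2 (-0.22, edgeR adjusted p = 0.0202). TIP2-1 (AT3G16240), a water and ammonia channel, had 504 and 527 CPM in MA-Line1, 800 and 804 CPM in MC-Line3, and 773 and 697 CPM in Col-0. MA-Line1 was below Col-0, with a log2 fold change of -0.51 ± 0.07 (edgeR adjusted p = 0.000404), and MC-Line3 was at 0.13 ± 0.07 (edgeR adjusted p = 0.231), which was called without Col-0 replicate 1 (0.19, edgeR adjusted p = 0.0373) and with library size as the only scaling. TIP1-1, which is expressed in elongating cells, fell in both lines, with log2 fold changes of -0.48 ± 0.08 in MA-Line1 against -0.34 ± 0.08 in MC-Line3, and the MC-Line3 call was lost without either MC-Line3 library.

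TIP2-3 (AT5G47450, chr5:19248249-19249622), known mainly from roots, had the largest fall of the members detected in every library. It had 2.42 and 1.9 CPM in MA-Line1, 11.3 and 8.46 CPM in MC-Line3, and 15.1 and 17.8 CPM in Col-0. As for PIP2-4, the 3 groups did not overlap, with MC-Line3 between the others. The level was 7.58-fold lower in MA-Line1 than in Col-0 (log2 fold change -2.92 ± 0.18, edgeR adjusted p = 1.49e-06) and 1.66-fold lower in MC-Line3 than in Col-0 (-0.73 ± 0.16, edgeR adjusted p = 0.00592). The call in MC-Line3 was lost without MC-Line3 replicate 2 (edgeR adjusted p = 0.0766).

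Its close relative TIP2-2 (AT4G17340) is also mainly a root channel and was more abundant, at 92.8 CPM per kb over all libraries against 8.13 CPM per kb for TIP2-3. It had 68.9 and 66.8 CPM in MA-Line1, 130 and 115 CPM in MC-Line3, and 180 and 193 CPM in Col-0. The log2 fold change was -1.46 ± 0.08 in MA-Line1, compared with -0.61 ± 0.08 in MC-Line3 (edgeR adjusted p = 7.9e-07 and 0.000304), calls kept in every alternative processing. The ratio of TIP2-2 to TIP2-3 counts was 28.4 and 35.2 in the MA-Line1 libraries, 11.5 and 13.6 in those of MC-Line3 and 11.9 and 10.9 in those of Col-0. The less abundant gene of the pair therefore had a smaller share of the pair's counts in MA-Line1 than in the other groups, without a test of that difference.

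TIP4-1 (AT2G25810), a low member, had 3.13 and 3.2 CPM in MA-Line1, 5.59 and 5.58 CPM in MC-Line3, and 4.54 and 4.77 CPM in Col-0. It fell in MA-Line1, with a log2 fold change of -0.56 ± 0.15 (edgeR adjusted p = 0.015), a call lost without either MA-Line1 library and with library size as the only scaling, and was at 0.26 ± 0.15 in MC-Line3 (edgeR adjusted p = 0.205). TIP1-3 (AT4G01470), known as a pollen channel, had 0 counts in all 4 libraries of MA-Line1 and MC-Line3 and 18 and 15 counts in Col-0. Taking 3 counts per library as the floor, it was at least 5.98-fold lower in MA-Line1 and at least 5.32-fold lower in MC-Line3 than in Col-0. With TIP1-3 at its bound, the median log2 fold change of the tested members was again -0.56 for MA-Line1 and -0.29 for MC-Line3. The pollen marker VGD1 had 0.621 CPM in MA-Line1 replicate 1 and 0 in the other 5 libraries, the Col-0 libraries included. The seed channel TIP3-1 stayed between 0.354 and 1.11 CPM and was called in neither line, and 8 of 9 seed marker genes had at most 3 counts in every library.

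Among the NIPs, 3 of 6 tested members fell in each line. These were NIP1-1, NIP1-2 and NIP6-1 in MA-Line1, and NIP1-1, NIP5-1 and NIP6-1 in MC-Line3. The shares of all tested genes that fell were 19.1% in MA-Line1 and 16.7% in MC-Line3. NIP1-1 (AT4G19030), which carries arsenite and antimonite and is known mainly from roots, had 3.15 and 4.7 CPM in MA-Line1, 6.92 and 6.73 CPM in MC-Line3, and 8.8 and 11.5 CPM in Col-0. It fell in both lines, with log2 fold changes of -1.38 ± 0.20 in MA-Line1 against -0.58 ± 0.19 in MC-Line3 (edgeR adjusted p = 0.000324 and 0.0401). The call in MC-Line3 was lost without either MC-Line3 library, without Col-0 replicate 2, with library size as the only scaling and with limma-trend.

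NIP6-1 (AT1G80760), a boric acid channel of the shoot that supplies growing tissue, was lowest in MC-Line3. It had 18 and 20.3 CPM in MA-Line1, 11.9 and 11.6 CPM in MC-Line3, and 25.8 and 32.6 CPM in Col-0. The groups did not overlap, and the order differed from that of the PIPs, with MA-Line1 between the others. The log2 fold change was -0.61 ± 0.12 in MA-Line1, compared with -1.32 ± 0.12 in MC-Line3 (edgeR adjusted p = 0.00194 and 2.22e-05).

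NIP5-1 (AT4G10380), the boric acid uptake channel of the root epidermis, had 21.8 and 22.6 CPM in MA-Line1, 17.3 and 18.9 CPM in MC-Line3, and 23.2 and 31.3 CPM in Col-0. It fell in MC-Line3, with a log2 fold change of -0.59 ± 0.13 (edgeR adjusted p = 0.00531), a call lost without MC-Line3 replicate 1, and was at -0.30 ± 0.12 in MA-Line1 (edgeR adjusted p = 0.0869). The MA-Line1 value rested on the Col-0 library used: it was -0.49 and called without Col-0 replicate 1 (edgeR adjusted p = 0.000397), and -0.05 without Col-0 replicate 2 (edgeR adjusted p = 0.694). The ratio of NIP6-1 to NIP5-1 counts was 0.825 and 0.895 in the MA-Line1 libraries, 0.684 and 0.615 in those of MC-Line3 and 1.11 and 1.04 in those of Col-0. Both lines thus had less NIP6-1 relative to NIP5-1 than Col-0, MC-Line3 the least. NIP1-2 fell in MA-Line1, with a log2 fold change of -0.29 ± 0.10, a call lost on leaving out any 1 of the 6 libraries. NIP3-1 and NIP7-1 were called in neither line, at 0.251 to 1.28 CPM.

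Of the 3 SIPs of the endoplasmic reticulum, 1 rose and none fell in MA-Line1, and none was called in MC-Line3. The share of SIPs called in MA-Line1, 33.3%, was near the 37.1% of all tested genes called there. In MC-Line3, 31.2% of all tested genes were called. SIP1-1 (AT3G04090) had 70.2 and 73.1 CPM in MA-Line1, 73.5 and 74.2 CPM in MC-Line3, and 84.3 and 77.5 CPM in Col-0. Neither log2 fold change, -0.17 ± 0.07 in MA-Line1 or -0.13 ± 0.07 in MC-Line3, passed the test (edgeR adjusted p = 0.0846 and 0.201), and both were called lower without Col-0 replicate 2 (edgeR adjusted p = 0.0203 and 0.0484). SIP2-1 was the only member that rose in MA-Line1, by 0.38 ± 0.11 on the log2 scale, with 23.2 and 26 CPM in MA-Line1, 25.4 and 20.9 CPM in MC-Line3, and 18 and 19.8 CPM in Col-0. That call was lost without MA-Line1 replicate 2. In MC-Line3 the log2 fold change of SIP2-1 was 0.29 ± 0.11 (edgeR adjusted p = 0.066), and 5 of the 17 alternatives called it higher. These were library size as the only scaling, no filter beyond a count above 0, edgeR's likelihood ratio test, and leaving out MC-Line3 replicate 2 or Col-0 replicate 2. SIP1-2 had 4.93 ± 0.07 CPM in MA-Line1, 3.35 ± 0.16 CPM in MC-Line3 and 3.95 ± 0.99 CPM in Col-0 (SD, n = 2 each) and was not called, but it was called higher in MA-Line1 than in Col-0 without Col-0 replicate 1.

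Set directly against MC-Line3, MA-Line1 had lower transcript levels of 14 of the 30 tested members and a higher level of 1, where 8.68% of all tested genes were lower, 11.3% higher and 20.0% called in either direction. The median log2 fold change of MA-Line1 over MC-Line3 was -0.32 over the tested members and -0.01 over all tested genes. TIP1-3, with 0 counts in both lines, could not be called here. Without it, 14 of 29 members were lower and 1 was higher, with a median of -0.37. By subfamily, 4 of 5 PIP1, 4 of 8 PIP2 and 5 of 8 TIP genes were lower in MA-Line1. Among the NIPs, NIP1-1 was lower in MA-Line1, a call lost without MA-Line1 replicate 1 or either MC-Line3 library, and NIP6-1 was higher. None of the 3 SIPs was called. SIP1-2 and NIP5-1 were called higher in MA-Line1 in each fit that left out 1 Col-0 library. Col-0 is not part of this comparison, and such a fit loses the spread between the Col-0 libraries. The log2 fold change of NIP5-1 was 0.31 in both fits. SIP1-2 and NIP5-1 were also called higher in the fit of MA-Line1 and MC-Line3 alone, which holds no Col-0 library. With all 6 libraries, SIP1-2 was called higher under 3 settings. These were library size as the only scaling, no filter beyond a count above 0, and edgeR's likelihood ratio test.

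Only PIP2-4 and TIP2-3 were lower by a log2 fold change of size 1 or more, against 2.21% of all tested genes. PIP2-4 was 4.81-fold and TIP2-3 4.55-fold lower in MA-Line1 than MC-Line3 (log2 fold changes -2.27 ± 0.17 and -2.19 ± 0.18, edgeR adjusted p = 8.52e-06 and 1.61e-05). The log2 fold change of MA-Line1 over MC-Line3 was -0.85 ± 0.08 for TIP2-2, -0.81 ± 0.09 for PIP2-2, -0.82 ± 0.15 for TIP4-1 and -0.81 ± 0.20 for NIP1-1 (edgeR adjusted p = 4.32e-05, 8.96e-05, 0.00306 and 0.0153). Next came PIP2-7 at -0.69 ± 0.08, PIP1-3 at -0.68 ± 0.08, PIP1-1 at -0.67 ± 0.08, TIP2-1 at -0.64 ± 0.07 and TIP1-2 at -0.60 ± 0.07. Of these, PIP1-3, TIP1-2 and TIP2-1 had not been called between MC-Line3 and Col-0.

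The direct comparison was smaller for the other abundant members. PIP1-2 and PIP1-5 were lower in MA-Line1, with log2 fold changes of -0.24 ± 0.07 and -0.28 ± 0.07, and both calls were lost on leaving out any 1 library of either line. PIP2-1 was lower there, with a log2 fold change of -0.43 ± 0.08 (edgeR adjusted p = 0.00306), a call lost without MA-Line1 replicate 1 (edgeR adjusted p = 0.0514). For PIP1-4 the log2 difference between the lines was 0.00 ± 0.07 and for PIP2-3 it was -0.07 ± 0.10. NIP6-1 exceeded its MC-Line3 level in MA-Line1 by 0.70 ± 0.12 on the log2 scale (edgeR adjusted p = 0.00181), with both MA-Line1 libraries above both MC-Line3 libraries.

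Tissue markers moved beside these results. Of 17 root marker genes, 12 fell and 1 rose in MA-Line1, 2 fell and 2 rose in MC-Line3, and 11 were lower and 1 higher in MA-Line1 when the lines were compared directly. Shares of all tested genes to set beside this and the following lists are 19.1% lower and 18.0% higher for MA-Line1 over Col-0, 16.7% lower and 14.5% higher for MC-Line3 over Col-0, and 8.68% lower and 11.3% higher for MA-Line1 over MC-Line3. The summed root marker level was 1476 and 1577 CPM in MA-Line1, 2984 and 2546 CPM in MC-Line3, and 3160 and 2935 CPM in Col-0. Most of that sum came from PYK10, a glucosidase of the endoplasmic reticulum bodies in roots, at 1286 and 1367 CPM in MA-Line1, 2749 and 2314 CPM in MC-Line3, and 2944 and 2724 CPM in Col-0.

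The fall included the endodermal genes CASP1 and CASP5 of the Casparian strip, the root hair genes COBL9, EXPA7 and EXPA18, and the root cap gene SMB, all by a log2 fold change of size 1 or more in MA-Line1. CASP1, for example, had 4.91 and 6.24 CPM in MA-Line1, 13.9 and 12 CPM in MC-Line3, and 16.9 and 17.5 CPM in Col-0. The vascular gene SHR and the cortex gene PEP were not called in MA-Line1, with log2 fold changes of 0.04 and 0.20, and neither were the root hair oxidase gene RHD2 at -0.28 (edgeR adjusted p = 0.334) and the root cap gene BRN1 at -1.93 (edgeR adjusted p = 0.0829). CO2, the gene of a cortex-specific transcript, rose there, with a log2 fold change of 0.97. The part of the root markers in the aquaporin result was not tested, and in whole seedlings fewer cells of a type and less RNA per cell cannot be told apart.

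Shoot markers were lower as well. Of 10 photosynthetic and leaf genes, 6 fell in MA-Line1, compared with 4 in MC-Line3, and the median log2 fold change was -0.43 in MA-Line1, compared with -0.24 in MC-Line3, where the root list had medians of -1.40 in MA-Line1 against -0.15 in MC-Line3. Their summed level was 44602 and 47295 CPM in MA-Line1, 50876 and 54807 CPM in MC-Line3, and 66046 and 62835 CPM in Col-0. Markers of both organs were present in every library, as the label of whole seedlings implies.

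**Figure D4:**
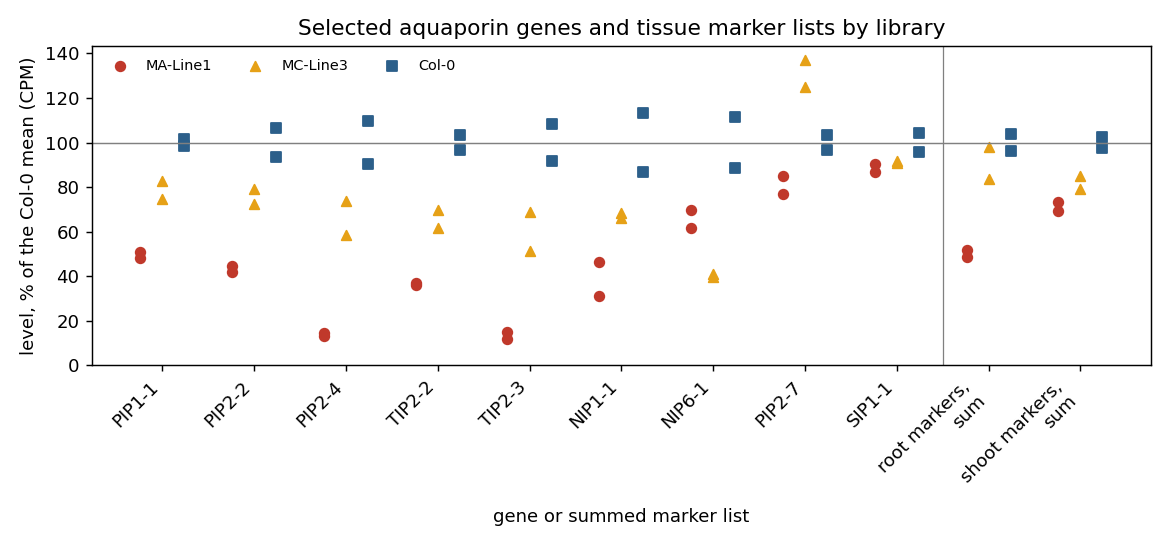
Level in each library as a percentage of the Col-0 mean in CPM for 9 aquaporin genes and for the summed root and shoot marker lists, with MA-Line1 (circles) left, MC-Line3 (triangles) in the middle and Col-0 (squares) right. In MA-Line1 the root marker sum, most of which is the single gene PYK10, stood at 48.4 and 51.7% of the Col-0 mean. PIP1-1 stood there at 48.3 and 51% and PIP2-4 at 14.4 and 12.9%, while NIP6-1 was lowest in MC-Line3 at 40.8 and 39.7%.

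Genes that act with aquaporins changed less uniformly. Of 18 genes for aquaporin trafficking, degradation, regulation and boron export, 17 were tested, of which 8 fell and 3 rose in MA-Line1, 4 fell and 2 rose in MC-Line3, and 2 were lower and 1 higher in MA-Line1 when the lines were compared. TSPO, a receptor that sends PIP2-7 to autophagic degradation, fell in MA-Line1, with 0.34 and 0.452 CPM in MA-Line1, 0.444 and 1.08 CPM in MC-Line3, and 1.88 and 1.5 CPM in Col-0 (log2 fold change -2.09 in MA-Line1, edgeR adjusted p = 0.00372). HCR1, a kinase that regulates root hydraulic conductivity, fell in MA-Line1, with a log2 fold change of -1.06 (edgeR adjusted p = 0.00118).

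The boron exporters differed among themselves. BOR4 fell in MA-Line1, with a log2 fold change of -1.41 (edgeR adjusted p = 0.0207), and BOR7 had 20 and 20 counts in MA-Line1, 49 and 65 counts in MC-Line3, and 3 and 3 counts in Col-0. BOR7 was higher in both lines than in Col-0 (edgeR adjusted p = 0.00775 for MA-Line1 and 0.000284 for MC-Line3) and lower in MA-Line1 than in MC-Line3 (edgeR adjusted p = 0.0175), all at a few counts. BOR1, which loads boron into the xylem, fell modestly in both lines, with log2 fold changes of -0.35 in MA-Line1 against -0.32 in MC-Line3.

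Of 8 proton pump genes of the plasma and vacuolar membranes, 3 fell in MA-Line1, 4 fell in MC-Line3 and none was called between the lines, where 37.1%, 31.2% and 20.0% of all tested genes were called in either direction. The vacuolar pyrophosphatase AVP1 had 460 and 502 CPM in MA-Line1, 532 and 517 CPM in MC-Line3, and 840 and 655 CPM in Col-0. Aquaporin transcripts vary over the day, so 10 clock genes were counted as well: 3 fell in MA-Line1, 5 fell in MC-Line3, and 2 were lower and 2 higher in MA-Line1 in the comparison of the lines. The evening gene ELF4 had 2.17 and 1.76 CPM in MA-Line1, 4.27 and 3.94 CPM in MC-Line3, and 4.78 and 1.97 CPM in Col-0, with a log2 fold change of -1.06 for MA-Line1 over MC-Line3 (edgeR adjusted p = 0.048). The evening gene PRR5 had 12.1 and 13.5 CPM in MA-Line1, 22.8 and 22.9 CPM in MC-Line3, and 33.5 and 8.1 CPM in Col-0, so that the Col-0 libraries differed most from each other. The part of clock phase in the aquaporin values was not tested.

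Short motifs, 4 in all, were sought on both strands of the window of 250 bases before to 50 bases after each member's annotated start, in TAIR10.1. GCCGCC, the core of the GCC box bound by many ERF proteins, was found in 2 of 34 members (5.88%), TIP1-2 and TIP2-3, and in 2.57% of 27443 protein-coding genes. The TIP1-2 match, shown because this gene is the most abundant member, lies at chr3:9723990-9724025 on the minus strand, with the motif in capitals.
TIP1-2: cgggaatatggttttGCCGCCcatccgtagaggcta
The pattern searched for the hypoxia-responsive promoter element was AAACCA, 3 bases of any kind and GC. It was found in 1 member (2.94%), PIP2-3, and in 1.04% of all genes. This match and the TIP2-3 match of GCCGCC lie after the annotated start, from base 27 and base 18 of the gene. ACGTG, the core of abscisic acid response elements, was found in 6 members (17.6%) and in 26.7% of all genes, and the evening element AAAATATCT was found in 0 members and in 2.82% of all genes. The PIP2-4, TIP2-2 and NIP6-1 windows held none of the 4 motifs, which says only that these letters do not occur there.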

How the data were processed

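The authors sequenced polyA RNA (TruSeq v2), aligned reads to TAIR10 with TopHat2 and counted reads per gene with HTSeq, and deposited raw counts for 6 libraries, without normalization. The strand setting of the counting is not given in the sources used here. The MC columns name another line number than the sample labels and were assigned by construct and replicate. Genes passing filterByExpr were scaled by TMM and fitted in 1 model with a mean per group (R 4.3.3, edgeR 4.0.16, glmQLFTest, called at a Benjamini-Hochberg adjusted p below 0.05). The authors also used edgeR at an FDR below 0.05, without stating the filter or test. They reported far fewer genes than the 7864 called here for MA-Line1 and 6618 for MC-Line3 against Col-0. The shares of genes called here therefore belong to this fit and not to the study's. With 2 libraries a group, p-values rest on a spread pooled across groups. The script was tested on simulated data. Names, exon lengths and sequence came from RefSeq TAIR10.1, which matched all 34 members. Alternatives used limma 3.58.1, DESeq2 1.42.0, other filters and scalings, and each library left out. Members and gene lists were chosen with earlier results of these data known. Every member was accounted for, with values in each library for those called with a log2 fold change of size 0.5 or more and for the most abundant of each subfamily. Genes of other lists were named where called with a size of 1 or more, except for some root markers not reported here by name, and SHR, PEP, RHD2, BRN1, CO2, BOR1, AVP1 and PRR5, as well as PIP1-4, PIP2-5, PIP2-8, SIP1-2 and SIP2-1, were described after their values were seen.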

Additional observations from a re-analysis of the deposited data

How the results depend on the processing

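No called result changed direction under any of the 17 alternatives: all 55 member calls over the 3 comparisons kept their sign, 34 of them were kept under every alternative and 21 were lost under at least 1. The alternative with the legacy option of the quasi-likelihood fit turned on only repeated the main fit. The TIP1-3 calls, at 0 counts in both lines, could not change sign. With library size as the only scaling, the median of all tested genes lay at 0.18 (log2) for MA-Line1 over Col-0 and 0.14 for MC-Line3 over Col-0, a setting that also moved the members' median in MA-Line1 to -0.39, and gave 2 higher and 17 lower members there and 4 higher and 14 lower in MC-Line3, with 44.6% and 36.4% of all tested genes called. Leaving out each library gave 18 to 23 called members in MA-Line1 against Col-0, 9 to 20 in MC-Line3 against Col-0 and 11 to 17 in MA-Line1 against MC-Line3, while the share of all tested genes called ran from 20.3 to 39.1%, 16.4 to 34.6% and 9.84 to 28.2%. Fits with replicate number as a block called 20, 17 and 14 members in the same order of comparisons, with 35.3, 29.3 and 18.6% of all tested genes called. Deviations of libraries with the same number were nearly uncorrelated across genes (r from -0.05 to 0.03 over 21206 genes, which are not independent), so the numbers did not pair the samples. TIP1-3 could not be tested with a minimum of 10 counts. The legacy option of the quasi-likelihood fit and the limma-trend prior count of 2 were chosen after seeing the data. Precision is limited by 2 libraries a group, most for members under 1 CPM.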
